A study of Mus musculus with 15 samples.

Results

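The hearts of 5 nondiabetic mice were compared with a commercial mouse reference RNA, using the 5 arrays labelled Nondiabetic-1 to Nondiabetic-5 out of the 15 arrays of the series. These arrays were chosen by their labels alone, and no measured value entered the choice. The mice were C57BL/KLS-leprdb/lepr+ (db/+), heterozygous for the leptin receptor mutation, kept on normal chow as littermate controls of the obese, diabetic db/db mice that make up the other 10 samples. Whole heart RNA was collected at the end of the 4-month study. On each array 1 heart was labelled with Cy5 and the same pooled reference RNA with Cy3. All 5 mice carried 1 mutated copy of the receptor gene, so no fully wild type heart was measured, and neither sex nor exact age was used. The quantity described throughout is the log2 ratio of heart over reference for 1 probe, which says how much more or less of a transcript the heart held than the reference pool. The brightness of the heart channel is given as the scanner's processed signal.

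The heart is built mostly of cardiomyocytes, large cells that rarely divide and are packed with sarcomeres, the units of actin and myosin that shorten at every beat. Contraction is set off by calcium that enters through surface channels and is released from the sarcoplasmic reticulum, and it is paid for by mitochondria that burn mainly fatty acids. A dense capillary bed, fibroblasts, resident macrophages and mural cells fill the space between the muscle cells. A reference RNA of this kind is made from a pool of cell lines and serves as a common yardstick. A ratio therefore reads both what the heart expresses and what the pool happens to hold.

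The reference was always in the Cy3 channel, with no dye swap, so a difference between dyes for a given probe cannot be told apart from a difference between heart and reference. The pool was 1 RNA, so that the errors below cover the spread between the 5 hearts and arrays and not that of the reference. Of 41174 probes, 28719 had a heart or a reference signal well above background on at least 4 arrays and were tested, and 13469 genes were represented among them. The heart channel was well above background for 23217 to 29483 probes per array. Correlations between arrays over all tested probes ran from 0.928 to 0.970. The defining markers of the tissue bore out its label, since all 9 cardiomyocyte markers and all 5 endothelial markers were called higher in heart than in reference.

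The array of replicate 2 stood apart from the other 4. It held 1210 outlier spots, which were left out, against 147 to 283 on the others. The means of Acacb, Actc1, Actn2, Casq2, Col1a2, Cox8b, Krt8, Ldhb, Mybpc3, Myh4, Myoz2, Nop56, Nppb, Pde4dip, Pfkm, Pln, Slc2a1, Tnni3, Tnnt2, Ttn, Txlnb and Xirp2 therefore hold no value of replicate 2. Those of Actc1, Atp2a2, Ckmt2, Cox6a2, Myh8 and Tnni3 hold none of replicate 4, and that of Tnnc2 none of replicate 5. Its measured spike-in ratios rose with a slope of 0.769 against the nominal log2 ratios, compared with 0.903 to 0.956 elsewhere. Among 336 enriched probes with a heart signal over 100000, the median log2 ratio was 2.01 on replicate 2. It was 2.88, 3.20, 3.06 and 3.16 on replicates 1, 3, 4 and 5. Of these probes, 75 had no value on replicate 2 and 20 had none on replicate 4, so those medians rest on fewer probes. The reference channel of these probes had a median signal of 51562 on replicate 2, against 19085 to 32787 on the other arrays, whereas the heart channel lay at 172404, within the range of 158083 to 222121 of the others. Ratios that this array moved by more than 1.5-fold are therefore also given without it. The source of the high reference signal was not tested.

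**Figure D1:**
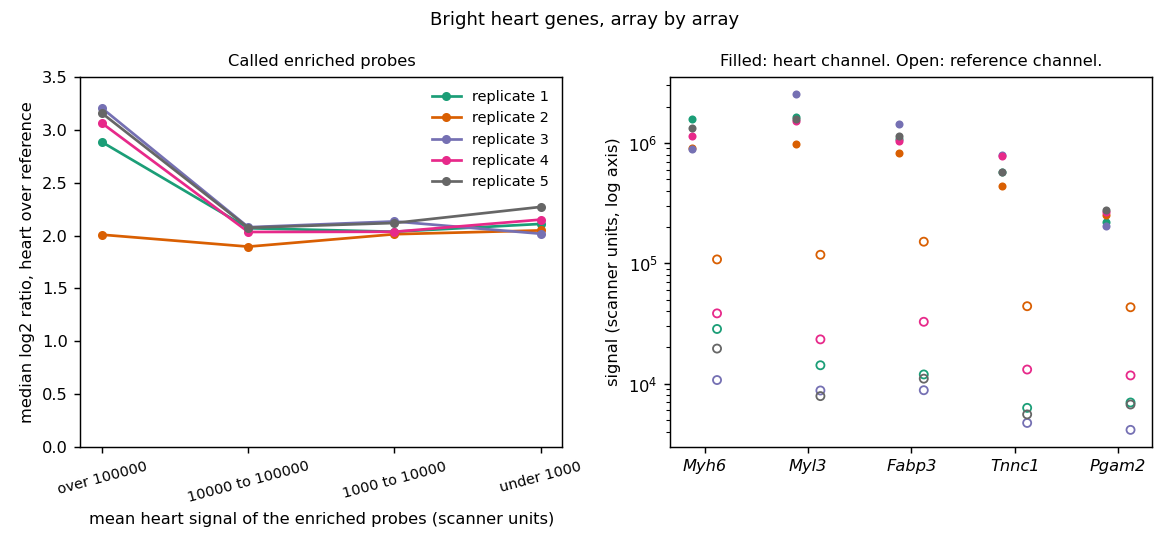
Left, the median log2 ratio (heart over reference) of the called enriched probes in 4 classes of mean heart signal, 1 line per db/+ array. Right, the processed signal (log axis) of 5 bright genes in the heart channel (filled) and the reference channel (open), coloured by array. Replicate 2 lies lowest at the bright end, at 2.01 against 2.88 to 3.20, and its open circles lie above those of the other arrays. At the bright end 75 of 336 probes had no value on replicate 2.

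Between heart and reference, 2952 genes were called enriched and 3444 depleted, using an adjusted p under 0.05 in limma and at least a 2-fold difference. These were 21.9% and 25.6% of the tested genes and are the shares against which the gene groups are read. Genes were grouped into 40 lists of known function, and part of the genes named from them were chosen after their values were seen. The enriched genes had a median log2 ratio of 2.19, with median signals of 4307 in heart and 681 in reference. The depleted genes had a median of -1.82, with 667 in heart and 2907 in reference. The reference was not above background on any array for 189 of the enriched genes, and the heart for 266 of the depleted genes. For these the text gives a lower bound or signals in place of a ratio.

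The zero of the ratio was set by the dye normalization, which makes the signals of the channels alike on average over the array. Spike-in RNAs added in known amounts gave another zero, a choice made after the data were seen. A spike-in present in equal amounts read 0.51 to 1.81 log2 above zero on the 5 arrays. With the spike-ins as zero the median tested gene moved from -0.13 to -1.31. The calls moved to 1489 genes enriched (11.1%) and 8032 depleted (59.6%), so the enriched share of all calls fell from 46.2% to 15.6%. Genes within about that distance above 0 change sign with the choice of zero, whereas differences between genes do not depend on it. The lower bounds of heart over reference hold for the zero of the dye normalization and would be smaller with the spike-in zero. An alternative processing, called normexp here, changed the background correction, added an offset of 50 to both channels and refitted the dye balance by loess. Which of these changes moved a value was not tested. With normexp, 1601 genes were enriched and 1599 depleted, and 23 of 40 list medians moved by more than the SD of the list's median between arrays.

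**Figure D2:**
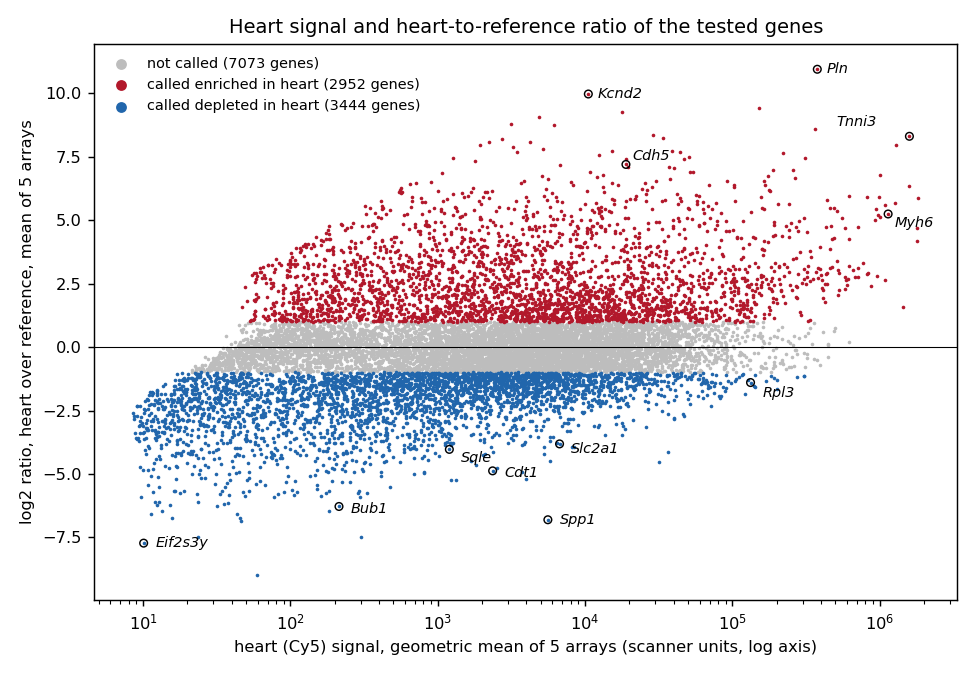
Each point is 1 of 13469 tested genes, with the geometric mean heart signal of 5 arrays on a log axis and the mean log2 ratio of heart over reference on the other axis. Enriched genes (2952, red) and depleted genes (3444, blue) are separated by a band of uncalled genes (grey), and named genes are circled. The ratios of Kcnd2 and Eif2s3y, not above background in 1 channel, are fitted values and no bounds. Eif2s3y is Y-linked, and the sex of the mice was not used.

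The lists of the contractile apparatus had the highest medians of the 40 gene lists examined. Of 38 tested genes of the thick filament, thin filament, M-band, Z-disc and costamere, 36 were enriched and none was depleted, with a median log2 ratio of 5.10. The median was 5.53 without replicate 2 and 3.90 with the spike-in zero. The 2 that were not called were Myl4, the atrial essential light chain, at -0.57, and Mybphl, at 0.86. These counts rest on the probe used for each gene, and other probes could differ. Tpm1 was at 5.44 on the probe used and depleted, at -1.71, on its other probe. Pdlim5 was at 4.81, with another probe at 4.92, while those at -0.19, 0.34 and 0.43 were not called. The atrial regulatory light chain Myl7 was called, at 3.03, with a heart signal of 256, 540, 752, 2886 and 559 on the 5 arrays.

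Cardiac myosin heavy chain Myh6, the fast adult isoform of the mouse ventricle, had heart signals of 1579210, 906133, 889895, 1131356 and 1332581 and reference signals of 28494, 107726, 10733, 38396 and 19590. Its log2 ratios were 5.79, 3.07, 6.37, 4.88 and 6.09. Heart was far above reference in every pair, and the low value belonged to replicate 2, through its reference channel. The mean was 5.24 (SE 0.46, adjusted p = 3.76e-05 in limma), or 5.78 without replicate 2. The slow isoform Myh7 lay close to it, at 5.08, or 5.69 without replicate 2. The difference between both isoforms was 0.16 and changed sign between arrays, from -0.35 to 0.57, and since their sequences are nearly identical some signal may be shared between the probes.

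Troponin I of the adult heart, Tnni3, was measured on 3 arrays, at 7.78, 8.86 and 8.26, and its spots on replicates 2 and 4 were left out as outliers. Heart was above reference on all 3. Its heart signal was 1382706 or more on each. Titin (Ttn), the giant spring of the sarcomere, was 200-fold above reference, with log2 ratios of 7.95, 8.23, 6.73 and 7.67 on replicates 1, 3, 4 and 5. All 8 titin probes were enriched, between 5.59 and 7.64. Mybpc3, which binds and brakes myosin, was at 7.97 and saturated on 1 array. Ventricular light chain Myl3 spread the most of these genes, with 6.86, 3.04, 8.18, 6.01 and 7.65 and a mean of 6.35 that became 7.18 without replicate 2. Cardiac actin Actc1 was at 5.46 over 3 arrays and troponin T2 (Tnnt2) at 5.12 over 4. In the Z-disc, Myoz2 (6.67), Xirp2 (6.75) and Actn2 (6.17) led, and all 16 tested members were enriched.

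Promoters of 3 contractile genes are shown because this group stands at the top of the ratios. They are RefSeq promoters of GRCm38.p6, the 250 bases before the annotated start on the gene's strand, at chr9:110763428-110763677 for Myl3 (plus strand), chr2:114052876-114053125 for Actc1 (minus strand) and chr1:135836084-135836333 for Tnnt2 (plus strand). Capitals mark matches on either strand to the CArG box, the site of serum response factor, and to GGAATG, the core of the TEAD site.
Myl3: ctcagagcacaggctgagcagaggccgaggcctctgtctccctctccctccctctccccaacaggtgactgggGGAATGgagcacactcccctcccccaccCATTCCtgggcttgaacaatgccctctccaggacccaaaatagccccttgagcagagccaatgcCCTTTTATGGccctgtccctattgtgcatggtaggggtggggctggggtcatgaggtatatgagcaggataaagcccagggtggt
Actc1: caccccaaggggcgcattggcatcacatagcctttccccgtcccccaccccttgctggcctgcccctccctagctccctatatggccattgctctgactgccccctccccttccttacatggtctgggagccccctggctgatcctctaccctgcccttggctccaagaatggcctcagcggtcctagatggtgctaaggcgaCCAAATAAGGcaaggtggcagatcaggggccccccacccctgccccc
Tnnt2: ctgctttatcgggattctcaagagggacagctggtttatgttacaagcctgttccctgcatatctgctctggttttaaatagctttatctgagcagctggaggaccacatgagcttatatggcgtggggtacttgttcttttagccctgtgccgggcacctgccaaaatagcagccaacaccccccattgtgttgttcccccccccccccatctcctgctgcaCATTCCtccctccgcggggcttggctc
Myl3 held a CArG box 85 bases before the start and GGAATG at 177 and 149. Actc1 held a CArG box at 47, and Tnnt2 held GGAATG at 27. A second RefSeq promoter of Tnnt2, at chr1:135836739-135836988, held neither. Over the 55 promoters found for contractile genes, 18.2% held a CArG box, against 1.47% of all 32851 promoters and 1.29% of those of enriched genes. GGAATG stood in 27.3% of them and in 12.6% of all promoters, and the MEF2 consensus in 12.7% against 2.92%. Such shares were also found in lists that were not enriched. A CArG box stood in 17.6% of 17 promoters of testis and germ cell genes, though most other lists held none. GGAATG stood in 40% of 5 promoters of the depleted mesothelial list, and the MEF2 consensus in 14.3% of 21 skeletal muscle promoters. A letter match is not a site of binding, and these shares carry no test. Genes of fast and embryonic skeletal muscle did not follow the cardiac sarcomere. Of 21 tested, 6 were enriched and 8 depleted, with a median of -0.11. Skeletal actin Acta1 was at 3.70, and fast troponins Tnnt3 (-2.59) and Tnnc2 (-1.62) and alpha-actinin 3 (Actn3, -3.64) were depleted. Myh4 was at 6.40 on 1 probe and Myh8 at 4.38, or 5.198 without replicate 2. The other Myh4 probe was above background in 1 heart and on no array in the reference, and the other Myh8 probe on no array in either channel, so these values are uncertain within a family of near-identical genes.

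Calcium handling genes were enriched in 14 of 16 cases, with a median of 4.28 (2.60 with normexp, 13 enriched). Phospholamban (Pln), the small inhibitor of the sarcoplasmic reticulum calcium pump, had the highest ratio of any gene measured in both channels. Its heart signals were 311521, 412092, 384615 and 407908 on replicates 1, 3, 4 and 5, and its reference signals 170, 104, 390 and 195. The log2 ratios of 10.84, 11.95, 9.95 and 11.03 amounted to 1968-fold (SE 0.31 on the log2 scale, adjusted p = 9.16e-07). The pump itself, Atp2a2, was at 5.86, 1.77, 6.92 and 5.85 on replicates 1, 2, 3 and 5, so its mean of 5.10 became 6.21 without replicate 2. The release channel Ryr2 had heart signals of 447, 784, 289, 605 and 1131 and no reference signal above background, which gives at least 17.8-fold. The calcium-binding lumenal protein Hrc (4.95), junctophilin 2 (Jph2, 3.99), calsequestrin 2 (Casq2, 4.58) and the sodium-calcium exchanger Slc8a1 (3.78) were enriched as well. Fkbp1b, which stabilizes the release channel, was the member depleted, at -1.77, -2.35, -2.66, -2.14 and -2.25, and both of its probes were depleted. The inositol trisphosphate receptor Itpr2 was at -0.89.

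Ion channels and gap junction genes of cardiac excitation were enriched in 21 of 22 cases, with a median of 4.49, and only the connexin Gjc1 was not called. The transient outward potassium channel Kcnd2 had heart signals of 11420, 10429, 6476, 12429 and 13466, while the reference was at 6 to 20 and above background on no array. It was at least 328-fold above reference. Kcna5, the ultrarapid potassium channel, was at least 101-fold above. The sulfonylurea receptor Abcc9 (7.10) and its pores Kcnj8 (7.72) and Kcnj11 (5.17) form ATP-sensitive potassium channels, and all were enriched. The main ventricular connexin Gja1 was at 2.12 and the atrial and conduction connexin Gja5 at 4.85.

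Cardiac transcription factors were enriched in 18 of 20 cases (median 3.86), and Tbx18 (-0.31) and Srf (0.88) were not called. Nkx2-5, which sets cardiac fate, had log2 ratios of 3.96, 3.13, 4.49, 3.39 and 3.83. Tbx20 was at least 33.4-fold above reference, and Tbx5 was at 4.24. Gata4 and Gata6 were at 2.53 and 1.23, the latter close to the uncertainty of the zero. The other Gata6 probes were not called, at 0.89 and -0.89. The coactivator of mitochondrial genes Ppargc1a was at 3.90 and its partners Esrra, Esrrb and Esrrg at 2.15, 4.23 and 6.07. The other Esrrg probe was not called, at 0.24. Esrra was among the steadiest genes, with 2.22, 2.10, 2.19, 2.14 and 2.13 on the 5 arrays. For the electrical genes and the transcription factors, the reference signals were often near background. With normexp the medians of these lists were 2.11 and 1.40, with 13 of 22 and 11 of 20 still called enriched.

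Natriuretic and atrial genes were enriched in 8 of 10 cases with a median of 4.08, and in 4 of 10 with a median of 1.44 under normexp. Nppa, the atrial natriuretic peptide, had heart signals of 541275, 342887, 155076, 316818 and 368130 and log2 ratios of 5.11, 2.41, 6.08, 4.05 and 5.07. The ratio was 4.54 with all arrays and 5.08 without replicate 2. Nppb, its ventricular relative, was at 6.99, and Corin, the protease that cuts the Nppa precursor, at 7.55. The 2 that were not called were Myl4 and Dkk3, at -0.57 and -0.71. Receptors and effectors of adrenergic and muscarinic signalling had lower ratios, with 10 of 12 enriched at a median of 1.60. The beta-1 receptor Adrb1 was at 1.76, adenylyl cyclase Adcy5 at 4.92, and the muscarinic receptor Chrm2 at least 7.56-fold above reference. With the spike-in zero that median was 0.43, and 4 of the 12 were still called, and with normexp it was 0.86 with 5 called.

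Genes of mitochondrial energy production, each read by 1 probe, were enriched almost without exception. In 5 lists covering fatty acid oxidation, the tricarboxylic acid cycle and respiratory complexes I, III, IV and V, 129 of 134 tested genes were enriched and 1 was depleted. The median was 2.69, and 1.51 with the spike-in zero, where 103 were still called. Their heart signals were bright, with a median of 199131. All 31 fatty acid genes were enriched (median 3.40). Fabp3, the fatty acid carrier of heart cytosol, had log2 ratios of 6.49, 2.44, 7.34, 4.997 and 6.69, that is 5.59 with all arrays and 6.38 without replicate 2. Pdk4, which inhibits pyruvate dehydrogenase, was steadier, at 6.37, 6.17, 7.09, 6.45 and 6.67. Cpt1b, the muscle gate of fatty acid entry, was at 5.56, and the scavenger receptor Cd36 at 5.44. The lipid droplet protein Plin5 was at 6.40.

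All 27 genes of the tricarboxylic acid cycle and pyruvate dehydrogenase were enriched, between 1.12 (Suclg2) and 4.06 (Sdha), with a median of 2.49. In complex I, 35 of 36 were enriched and Ndufa6 was not called, at 0.88. Here too other probes could differ. Ndufv3 (2.08), Ndufab1 (2.94) and Ndufa7 (1.14) were enriched on the probe used. Their other probes were not called, at -0.48 and -0.24 for Ndufv3, 0.18 for Ndufab1 and 0.13 for Ndufa7. All 16 of complex V were enriched, with a median of 2.66. Complexes III and IV held the exceptions. Cox6a1 (-0.75), Cox7a2l (0.86) and Cox8a (-0.25) were not called, and Cox7c was depleted, at -1.27, on its single probe. The muscle forms of the same subunits, Cox6a2 and Cox8b, were at 5.68 (6.67 without replicate 2) and 7.46. Creatine kinases Ckm and Ckmt2, which shuttle phosphate from mitochondria to sarcomeres, were at 5.44 and 6.77, the latter at 7.83 without replicate 2. Myoglobin (Mb), with a heart signal of 1786115 and saturated on 1 array, was at 4.19, or 4.81 without replicate 2.

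Glycolysis divided between isoforms. Of 27 tested genes of glucose transport, glycolysis and glycogen breakdown, 11 were enriched and 7 depleted, with a median of 0.14. The insulin-responsive transporter Slc2a4 was at 6.65, 4.37, 7.73, 6.63 and 7.29, with a mean of 6.53. The general transporter Slc2a1 was at -3.37, -3.81, -4.18 and -3.91 on replicates 1, 3, 4 and 5, with a mean of -3.82. Lactate dehydrogenase B (Ldhb) was at 5.90 and Ldha at -0.50. Muscle forms Pgam2 (4.61), Eno3 (3.54), Pfkm (3.31) and Pygm (5.08) were enriched. The counterparts Pgam1 (-2.84), Eno1 (-2.70) and Pfkl (-1.15) were depleted, and so was the brain form of aldolase, Aldoc (-3.44). The counterparts of Pygm, Pygl (2.10) and Pygb (2.68), were enriched instead, and Gapdh was at 0.75.

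This division was followed over 28 pairs of genes that encode a heart or muscle form and another form of the same protein, 27 of which had both members tested. The heart or muscle member was enriched in all 27 tested pairs. These members were picked as known heart or muscle forms, with earlier results of these data known, so the count describes them and tests nothing. The weakest was Acacb, the carboxylase that makes the inhibitor of Cpt1b, at 1.06 over 4 arrays that ran from -0.16 to 2.23. It missed the call without replicate 1, 4 or 5 (0.67 at the lowest) and with normexp (0.11), and changed sign with the spike-in zero (-0.27). The other member was depleted in 11, enriched in 5 and not called in 11. In 26 pairs the heart or muscle member was the higher on every array with values for both, the exception being Myh6 and Myh7. The median difference within a pair was 6.25 log2, a quantity that the choice of zero does not change, and the widest was that of Slc2a4 and Slc2a1 (10.89). The ribosomal protein pair Rpl3l and Rpl3, where Rpl3l is the striated muscle form, lay at 5.72 and -1.40. The elongation factor pair Eef1a2 and Eef1a1 lay at 5.09 and -1.93.

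**Figure D3:**
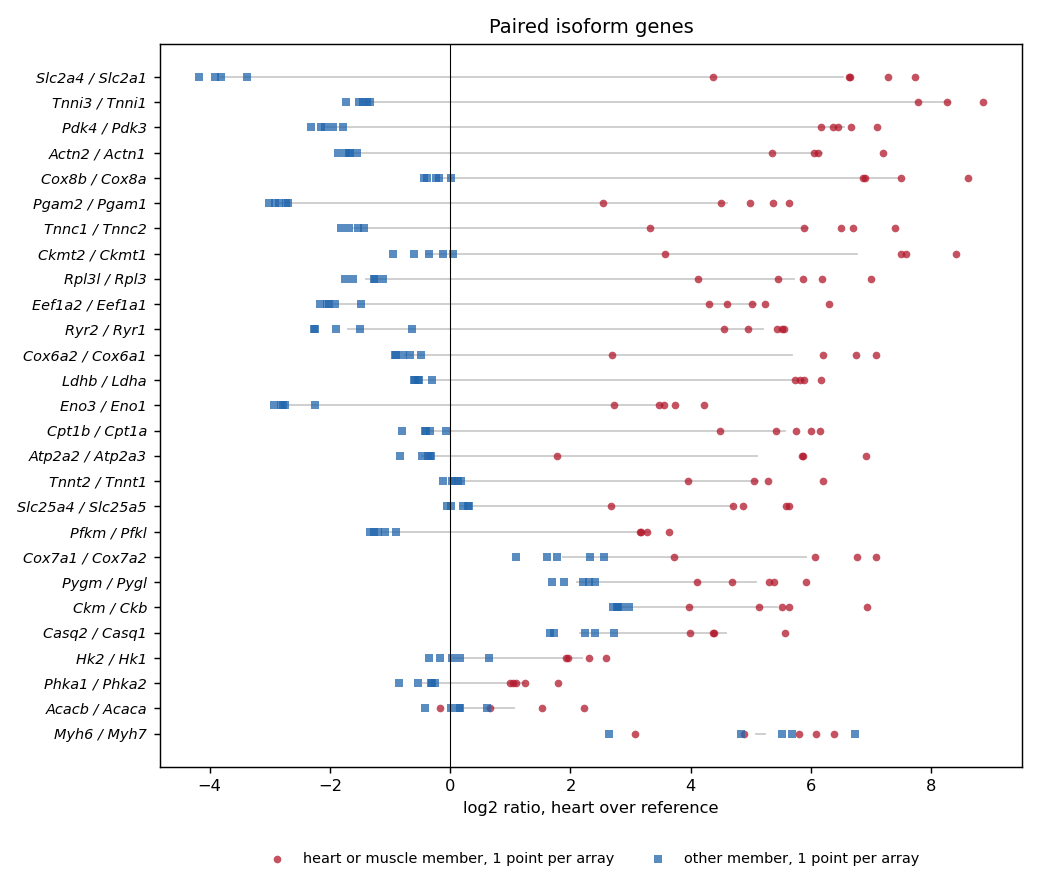
Log2 ratio of heart over reference for both members of 27 isoform pairs, 1 point per array (circles, heart or muscle member; squares, other member; grey lines join the means). On every array with values for both, the heart or muscle member was the higher in 26 pairs, Myh6 and Myh7 being the exception. The reference was above background on no array for Ryr2, whose points are no bounds.

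Cells other than cardiomyocytes were also read in the whole heart RNA, where the number of cells of a type cannot be told apart from the RNA each cell holds. Endothelial markers were enriched in 26 of 27 cases with a median of 4.66. Under normexp 25 were enriched and the median was 2.73, whereas that of the contractile genes was 4.60. VE-cadherin (Cdh5), the junction protein of endothelium, was at 8.27, 6.54, 6.01, 7.24 and 7.92, and Emcn (6.60), Ptprb (7.39) and Kdr (6.21), a receptor for vascular endothelial growth factor, were also high. Caveolin 1 (Cav1), which many cultured cells express, was not called, at 0.66, while its other probe was enriched, at 1.57. The pericyte genes Rgs5 and Kcnj8 were at 5.83 and 7.72. Smooth muscle genes were mixed, with 4 of 12 enriched, Myh11 at 3.93 and Tagln at -1.97.

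Fibroblast and matrix genes split into 13 enriched and 10 depleted of 25. The fibrillar collagens Col1a1, Col1a2 and Col3a1 were depleted, at -3.22, -2.71 and -1.43, and so was fibronectin (Fn1, -2.85). The heart signal of Col1a1 was nevertheless 7811 to 30895. Decorin (Dcn, 2.26), lumican (Lum, 5.65), Col15a1 (5.03), Tcf21 (5.05) and Mgp (3.55) were enriched. The median of this list was 1.06, and -0.11 with the spike-in zero.

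Macrophage markers were enriched in 12 of 17 cases, with a median of 3.82, and in 10 with a median of 1.84 under normexp. Lyve1, which marks lymphatic vessels and resident macrophages, was at least 98.6-fold above reference. Mrc1 (5.74), Cd163 (5.14), Folr2 (4.56) and the complement genes C1qa, C1qb and C1qc (4.50, 3.82 and 3.93) were enriched. Cd14 (-2.83) and Fcer1g (-1.10) were depleted, and Adgre1 (-0.18), Csf1r (0.72) and Tyrobp (0.21) were not called. Of 10 T cell genes tested none was enriched and 5 were depleted, and of 8 B cell genes 1 was enriched and 5 depleted. With normexp 3 T cell genes and 2 B cell genes were still depleted, and no B cell gene was enriched. Alas2, of red cell heme synthesis, was at 4.38 with a heart signal of 21878.

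Genes of other tissues were read as well. Brown and white fat genes were enriched in 6 of 9 cases, led by Cidea (5.75) and adipsin (Cfd, 4.56), whereas Adipoq had a heart signal of 121 on average and a ratio of 1.91. Under normexp 1 of the 9 was still enriched and the median fell from 1.28 to 0.28, and with the spike-in zero 2 were. Of 9 mesothelial and epicardial genes 7 were depleted, with keratins Krt8, Krt18 and Krt19 at -3.04, -3.46 and -3.58, and 4 were still depleted under normexp. Albumin (Alb), a liver product, was read at 463, 412, 12, 44 and 592 in the 5 hearts and on no array in the reference. The other liver markers, Apoa1 and Ttr, were above background on no array in either channel. Of 9 liver genes tested 4 were enriched and 3 depleted, and under normexp 1 was still enriched.

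**Figure D4:**
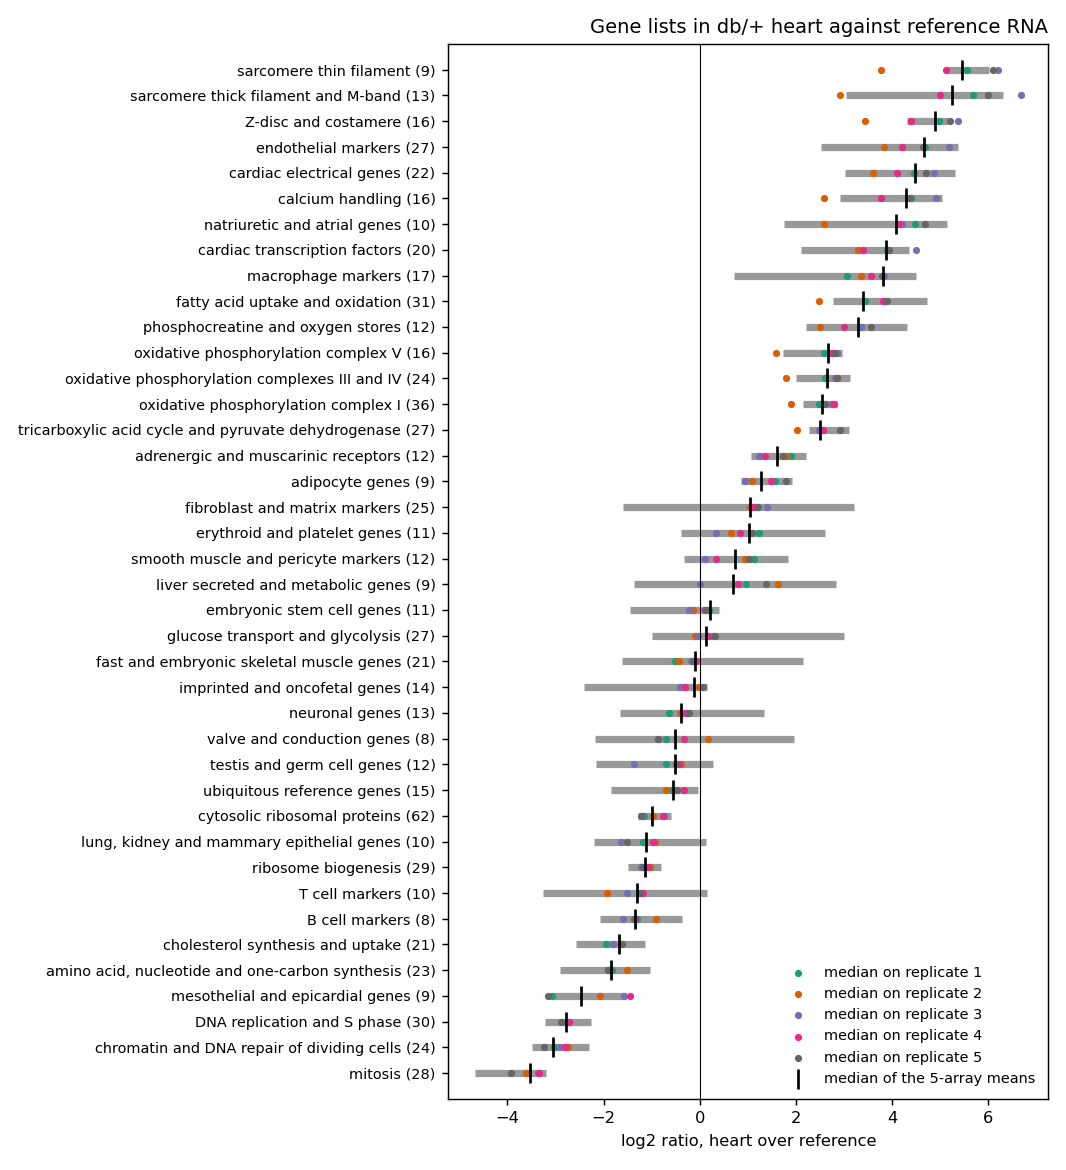
Log2 ratio of heart over reference for 40 gene lists, with the number of tested genes in brackets. Coloured points are the list median on each of the 5 arrays, black ticks the median of the 5-array means and grey bars the interquartile range of the genes. Contractile, electrical, endothelial and energy lists lie to the right, and lists of cell division lie to the left.

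The lists of cell division had the lowest medians of the 40 gene lists. Of 82 tested genes of mitosis, DNA replication, chromatin and repair, 80 were depleted and none was enriched, with a median of -3.12. Under normexp the median was -2.26 and 75 were depleted. Only Cenpa (-0.86) and Hmgb3 (0.93) were not called. Their heart signals had a median of 1883 against 14976 in the reference, and the heart was well above background on all 5 arrays for 78 of the 82.

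Bub1, a kinase of the spindle checkpoint, had heart signals of 314, 192, 191, 306 and 127 and reference signals of 17414, 19542, 11687, 17768 and 17965. The log2 ratios of -5.79, -6.67, -5.93, -5.86 and -7.15 made it the lowest of the list, 77.7-fold below reference (SE 0.22, adjusted p = 6.38e-07). Cdc20, the activator of the anaphase-promoting complex, was at -3.90, -2.96, -4.07, -3.93 and -4.48. Topoisomerase Top2a was at -4.33, Aurkb at -5.72 and Ccnb1 at -4.90. All 30 replication genes were depleted, between -1.46 (Ccne1) and -4.92 (Uhrf1). Cdt1, which loads the replicative helicase, was at -4.88, and the helicase subunits Mcm6 and Mcm7 were at -3.94 and -3.01. Replicate 2, low for bright heart genes, did not lie apart here, and the list medians by array ran from -3.93 to -3.33 for mitosis and from -2.89 to -2.72 for replication.

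The promoters of 3 of these genes are given for the same 250 bases, at chr4:118437344-118437593 for Cdc20, chr11:99024190-99024439 for Top2a and chr5:138171884-138172133 for Mcm7, all on the minus strand. Capitals mark CCAAT, the NF-Y box, TTTGAA, the core of the cell cycle homology region bound by the DREAM complex, and GCGGGAA, an E2F site, on either strand.
Cdc20: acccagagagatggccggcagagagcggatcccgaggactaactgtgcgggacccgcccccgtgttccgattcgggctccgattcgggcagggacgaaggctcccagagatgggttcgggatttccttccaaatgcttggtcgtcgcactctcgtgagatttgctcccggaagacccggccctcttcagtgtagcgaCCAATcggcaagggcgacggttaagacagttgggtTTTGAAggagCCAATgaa
Top2a: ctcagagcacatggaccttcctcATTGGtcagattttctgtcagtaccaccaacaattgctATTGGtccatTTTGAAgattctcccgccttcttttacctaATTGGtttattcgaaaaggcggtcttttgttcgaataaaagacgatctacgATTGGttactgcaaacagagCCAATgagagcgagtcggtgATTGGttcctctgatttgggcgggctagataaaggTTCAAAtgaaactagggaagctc
Mcm7: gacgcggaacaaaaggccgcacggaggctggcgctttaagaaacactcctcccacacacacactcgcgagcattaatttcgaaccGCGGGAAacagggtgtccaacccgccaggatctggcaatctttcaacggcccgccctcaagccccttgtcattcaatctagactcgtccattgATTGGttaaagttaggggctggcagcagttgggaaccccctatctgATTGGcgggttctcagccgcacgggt
Cdc20 held CCAAT at 53 and 8 bases before the start with TTTGAA between them at 18. Top2a held 6 CCAAT matches and 2 of TTTGAA, and Mcm7 held GCGGGAA at 165 with CCAAT at 72 and 26. A second RefSeq promoter of Mcm7 held GCGGGAA at 113 and CCAAT at 47. CCAAT was present in 82.1% of 28 promoters of mitosis genes, against 33.8% of all promoters and 37.2% of those of depleted genes. TTTGAA was present in 39.3% of them, in 15.99% of all promoters and in 11.4% of those of depleted genes. Promoters of replication genes held CCAAT in 54.8% and TTTGAA in 9.68%. CCAAT also stood in 56.7% of tricarboxylic acid cycle promoters and 55.6% of complex V promoters, both of enriched lists. GCGGGAA was found in 25.8% of 31 promoters of replication genes, in 3.82% of all and in 6.86% of those of depleted genes. It was found in no mitosis promoter, but in 22.2% of 18 promoters of complex V genes, an enriched list. The median observed over expected CpG was 0.24 in contractile promoters and 0.86 in cell division promoters, against 0.37 in all promoters and 0.67 in those of tested genes. It did not follow the ratio over all lists, being 0.57 for called enriched and 0.63 for called depleted genes, 0.72 for the enriched mitochondrial lists and 0.28 for the depleted mesothelial list.

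Genes that supply growing cells were lower in heart as well. Of 23 genes of amino acid, nucleotide and one-carbon synthesis, 17 were depleted and none enriched, with a median of -1.86. Asparagine synthetase Asns was at -4.75, -4.71, -5.02, -4.96 and -5.21. Serine synthesis genes Phgdh, Psat1 and Psph were at -3.96, -3.78 and -3.02. Slc7a11, the cystine importer, was at least 14.1-fold below reference. The purine genes Paics (-0.25) and Atic (-0.53) were not called.

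Of 21 genes of cholesterol synthesis and uptake, 17 were depleted and none enriched (median -1.67), and 11 were depleted under normexp (median -1.01). Squalene epoxidase Sqle was at -4.42, -3.57, -4.10, -3.80 and -4.27, and the regulator Srebf2 at -2.66. Hmgcs1 stood just past the 2-fold limit, at -1.02, and at -0.98 without replicate 2. Its promoter is printed because this list had the highest share of CCAAT, and it lies at chr13:119690101-119690350 on the plus strand, with CCAAT in capitals on either strand.
Hmgcs1: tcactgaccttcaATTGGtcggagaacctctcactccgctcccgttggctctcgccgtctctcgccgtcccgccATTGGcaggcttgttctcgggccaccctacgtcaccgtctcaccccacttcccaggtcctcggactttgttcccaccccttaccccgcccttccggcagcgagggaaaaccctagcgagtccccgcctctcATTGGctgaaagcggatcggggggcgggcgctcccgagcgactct
The matches began 237, 176 and 45 bases before the start. CCAAT stood in 86.7% of 15 promoters of this list.

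Ribosomal genes shifted less. Of 62 cytosolic ribosomal protein genes, 29 were depleted and only Rpl3l was enriched, with a median of -0.99. The values of the other 61 lay between -2.30 (Rps19) and 0.73 (Rps29), and their heart signals were bright, as for Rpl3 with 106565 to 184957. Of 29 ribosome biogenesis genes 17 were depleted, among them nucleophosmin (Npm1, -2.23) and Nop56 (-2.21). In these lists many values lay within the distance between the zeros, and with the spike-in zero 58 of 62 and 29 of 29 were called depleted. Genes often used as constant references did not share 1 level. Actb was at -2.38, Ppia at -2.10, Eef1a1 at -1.93, Gapdh at 0.75 and Hprt at -0.38.

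Among single genes with heart and reference both well above background on each of the 5 arrays, the highest after Pln were Txlnb (9.41), a taxilin of muscle, Pde4dip (8.58) and Myot (8.35). Pde4dip held probes in opposite directions, from -1.72 to 8.58 over 5 probes. Myot, a Z-disc protein known best from skeletal muscle, had heart signals of 27422, 23291, 27485, 40333 and 29236. Tnni3 (8.30), Frmd5 (8.23), Mybpc3 (7.97, saturated on 1 array), Kcnj8 (7.72), Asb14 (7.67), Ttn, Corin, Ppp1r3c (7.47), which targets phosphatase to glycogen, and Cox8b followed. Frmd5 was even between hearts, at 8.15, 7.69, 8.50, 8.26 and 8.54. Of the genes not read in the reference, Klhl13 (at least 153-fold) and the carbonic anhydrase-related Car8 (at least 84.8-fold) stood beside Kcnd2, Kcna5 and Lyve1.

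At the low end stood Ifi202b (-7.49), an interferon-induced gene, and osteopontin (Spp1), a secreted matrix protein of macrophages and tumour cells. Spp1 had reference signals of 546274 to 780069 and heart signals of 2690, 27657, 4394, 5817 and 2875, the second from replicate 2. Its mean was -6.80, and -7.38 without that array. The ribosomal protein gene Rpl39l, active in germ cells and tumours, was at -6.45, opposite in sign to the muscle form Rpl3l. The immediate early gene Fos was at -4.71, -4.93, -5.86, -5.66 and -5.46. The Y-linked gene Eif2s3y was read in the reference at 1497 to 2429 and on no array in heart, at least 52.1-fold below. The sex of the mice was not used, so for this gene sex and tissue cannot be told apart. Phex, of phosphate balance in bone, was at least 100-fold below reference and Il6 at least 22.7-fold.

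The hearts differed little from each other for most genes. The median SD over 5 hearts was 0.25 log2 for all tested genes, 0.31 for enriched and 0.26 for depleted genes. Among the 100 enriched genes with the largest SD, replicate 2 was the lowest in 61. Bright sarcomere and mitochondrial genes stood among the most variable, such as Myl3, Atp2a2, Ckmt2, Cox6a2 and Fabp3. Other variable genes were picked after their values were seen. The detoxifying enzyme Cyp1a1 was at 3.14, 4.9995, 3.40, 5.90 and 5.78, and adipsin (Cfd) at 5.88, 3.63, 4.37, 5.19 and 3.71. Replicate 2 was not the lowest for Cyp1a1, but it was for Cfd, with replicate 5 close to it. The reference was above background on 1 array for Cyp1a1 and on 3 for Cfd, and its part in the spread was not tested. Heart signals moved too, from 160 to 2398 for Cyp1a1 and from 259 to 2242 for Cfd. The monocyte receptor Ccr2, not above background in the reference on any array, had heart signals of 320, 149, 357, 390 and 177 and was at least 8.09-fold above reference. Cdkn1c (3.21 to 3.53), a cell cycle inhibitor, and Palmd (6.70 to 7.38) were among the steady ones.

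**Figure D5:**
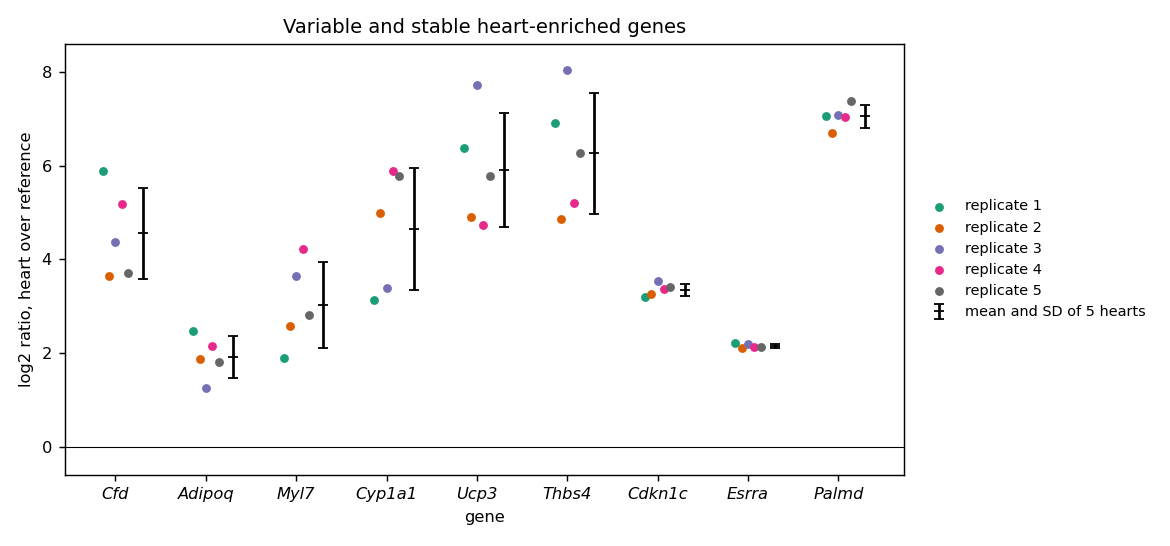
Log2 ratio of heart over reference in each of the 5 db/+ hearts for 9 enriched genes, with the mean and SD beside the points. The 6 genes at the left, Cfd to Thbs4, spread by 1.21 to 3.19 log2 between the lowest and highest heart. Cdkn1c, Esrra and Palmd, at the right, spread by 0.68 or less.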

How the data were processed

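The hearts of 5 db/+ mice were each hybridized against 1 reference RNA on Agilent arrays of mouse probes, with heart RNA in Cy5 and reference RNA in Cy3. Per the file headers, the authors extracted spot intensities with Agilent Feature Extraction 9.5.1, which subtracted background, detrended the signals and balanced the dyes by LOWESS. The deposited log10 ratios were those of the processed red over green signals, and they were turned here into log2 ratios. The deposited value table held the same ratios, with a largest difference of 0.

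Control spots and outlier spots were left out and spots of 1 probe averaged. A probe was tested when heart or reference was well above background on at least 4 arrays and at least 3 arrays gave a value. The test was limma 3.58.1 in R 4.3.3, with an intercept only, two-sided against 0, with Benjamini-Hochberg adjustment over all tested probes. It covers the spread between these hearts and arrays. A gene was read by the probe with the highest mean of both channels. RefSeq tables gave current symbols for 23477 of 41174 probes, and promoter sequences of GRCm38.p6 with 250 bases before the start searched. Probes were designed on mm8. The fit was tested on simulated data.

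Where the dim channel was well above background on none of the 5 arrays, the fold is a lower bound, the bright channel's mean over the dim channel's signal or, where higher, the lowest signal well above background on that array. For the bounds, the mean brightness of both channels was first given the same distribution on every array. They hold for the zero of the dye normalization. Named genes were the 20 highest and 20 lowest, the 10 largest bounds each way, up to 4 per list with the smallest p, the isoform pairs, the markers and the 10 most variable. Some named genes are not reported here. Further genes were chosen after their values were seen. Members and lists were chosen with earlier results of these data known. Alternatives covered background correction (normexp with an offset of 50, then loess), centring, filters, the slide as a random block and the fold limit. They also covered the probe choice, leaving out each array, and the spike-in zero, which was added after seeing the data.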

Additional observations from a re-analysis of the deposited data

Results flagged for a closer look

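Of 174 genes given in the text with values on at least 4 arrays, 5 had 1 array far from the others, and chance alone flags about 1 in 20 such groups. Actb was at -2.05 on replicate 3, against -2.51 to -2.43 on the other arrays. Cox7c was at -1.93 on replicate 1, and without that array its depletion still ran from -1.21 to -1.03. Eno1 was at -2.25 on replicate 2, against -2.94 to -2.75. Gata6 was at 0.96 on replicate 4, against 1.25 to 1.34, and Gja5 at 5.40 on replicate 5, against 4.68 to 4.79. Each of the 5 arrays was the distant one for 1 gene.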

How the results depend on the processing

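No paired analysis was possible because only 1 group of arrays was tested, against 0. Leaving out 1 array at a time gave 2920 to 2991 enriched and 3380 to 3475 depleted genes, and 6134 to 6242 and 6981 to 7235 probes. Normexp with loess left 1601 enriched and 1599 depleted genes (2611 and 2399 probes). Without a limit on the fold, 4979 and 6052 genes (10439 and 12526 probes) passed, and with a 4-fold limit 1635 and 1487 (3320 and 2838). Requiring both channels well above background on all 5 arrays left 4471 depleted probes. The spike-in zero, added after seeing the data, gave 1489 enriched and 8032 depleted genes (3020 and 17087 probes). With it, 8 named genes changed sign, to -1.07 for Acaca, -0.27 for Acacb, -1.16 for Cd3e, -1.11 for Hk1, -0.0919 for Pparg, -0.0889 for Prkar2a, -1.01 for Slc25a5 and -1.12 for Tnnt1. Of 40 list medians, 6 changed sign with that zero, 2 with normexp and 1 with the arrays centred on the median, and normexp moved 23 by more than their SD between arrays. Normexp took 57 of 274 named genes below the limits of a call, without a change of sign. The cause was not tested. The slide as a random block and the spread taken from the whole series kept every count within 1.5 times. Replicates 1 to 4 shared a slide and only replicate 5 lay on another, so the block cannot show a slide effect. For the spread of the series a pair of treated db/db arrays was averaged. The value table held the same ratios, so its counts were the same by construction.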

Other observations

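Among the 28719 tested probes, 9614 were paired with no current gene symbol, and of these 2085 were called enriched in heart and 2330 depleted. Of 4513 genes with more than 1 tested probe, every probe was enriched in 677 and every probe depleted in 723. In 1127 genes called probes stood beside probes that were not called, and in 47 genes probes were called in opposite directions, as for Pde4dip.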
